A study of Mus musculus with 4 samples.

Results

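The difference in the response to lipopolysaccharide (LPS) between mice with and without the P2X7 receptor was examined in the amygdala. It was computed for every gene as the LPS minus saline change in P2X7R -/- mice minus the LPS minus saline change in wild-type mice, and it used all 16 of the 16 arrays in the series, 8 from each genotype. A positive value means a larger rise, or a smaller fall, in the knockout. The 4 groups, with 4 arrays each, were wild type with saline, wild type with LPS, P2X7R -/- with saline and P2X7R -/- with LPS. All mice were C57BL/6J males aged 10 weeks, and all received an intraperitoneal injection 6 h before death, so the saline groups shared the handling and the needle. The LPS dose is stated as 7.5 µg per mouse and also as 250 µg/kg. Whole amygdala was taken and its total RNA was hybridised to Agilent 1-colour arrays. The labels limit the knockout to no cell type, and its allele was not given in the sources used here. The labels count 4 mice per group but do not tie an array to a mouse, so p-values measure the spread between arrays.

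P2X7 is a cation channel opened by high extracellular ATP, found in brain mainly on microglia and other glia. Its opening lets potassium leave the cell, which triggers the NLRP3 inflammasome, caspase-1 and the release of mature interleukin-1β. LPS is a bacterial cell wall component that is sensed by Toll-like receptor 4 with CD14 and MD-2, and it drives NF-κB target genes and, through interferon-β, the interferon-stimulated genes. In the brain after a peripheral injection, endothelial cells, perivascular macrophages and microglia are among the early responders.

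Levels are log2 processed intensities relative to the 75th percentile of the same array, differences are log2 with the standard error (SE) of the model, and n was 4 arrays per group. Arrays of the same group did not all resemble each other. Over the probes kept for the test, the median absolute difference was 0.24 between wild-type saline arrays 1 and 2. It was 0.14 between arrays 3 and 4, but 0.36 to 0.40 across these pairs. Arrays 1 and 2 lay on slide 1 and arrays 3 and 4 on slide 2. On arrays 1 and 2 the transcripts that LPS induces were already high. The mean level of the 20 measured cytokine and chemokine genes was -0.83 and -0.30 there, against -4.08 and -4.25 on arrays 3 and 4. It was -2.33, 0.08, -0.17 and -1.76 on the wild-type LPS arrays, -3.74 to -4.11 on the knockout saline arrays and 0.24 to 0.48 on the knockout LPS arrays. The labels call arrays 1 and 2 saline, and this was kept. The genotype differences are therefore given with all 16 arrays and, for the genes and lists the text turns on, again with arrays 3 and 4 as the only wild-type saline arrays, a choice made after the values were seen and one that rests the wild-type baseline on 2 arrays of 1 slide. Knockout saline array 1 also stood apart, differing from the other knockout saline arrays by 0.63 to 0.64 where those differed among themselves by 0.16 to 0.22. Leaving it out is reported for each gene that passed the test. The genotypes were hybridised on separate slides and scanned in separate sessions. A constant offset of a probe between sessions cancels in the difference of responses, but an offset that varies with signal does not cancel.

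P2rx7 itself, the targeted gene, stood at -0.15, 0.14, 0.78 and 0.90 on the wild-type saline arrays, at 0.14, 0.28, 0.07 and 0.70 with LPS, at -0.80, -0.91, -1.57 and -1.08 on the knockout saline arrays and at -1.08, -1.21, -1.69 and -1.43 with LPS. All 8 knockout arrays lay below all 8 wild-type arrays. These levels are from the brighter of its kept probes. The signal of that probe was well above background on every array. Where it lies (chromosome 5, 123134194 to 123134253, mm9) relative to the deleted part was not given in the sources used here.

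Of 19463 genes, 7 passed the test for a genotype difference in the LPS response (limma, Benjamini-Hochberg adjusted p under 0.05), which is 0.0360% of those tested. The difference was positive for 5 of them and negative for 2. The positive ones were Litaf, the chemokine gene Ccl4, the interferon-lambda receptor gene Ifnlr1, and the transcripts AK144717 and ENSMUST00000069631. The negative ones were Agxt2l1 and the transcript AK084144. With wild-type saline arrays 3 and 4 only, 1 gene passed (0.00514%), Lct, and it was none of the 7. At an unadjusted p under 0.05 there were 1343 genes with all arrays and 1359 with arrays 3 and 4 only. The median SE of a difference was 0.36 with all arrays and 0.38 with arrays 3 and 4, and the smallest difference that passed was 1.37 in size, or 2.58-fold. The size that could pass varied with the SE of each gene, and power was not computed, so smaller differences may have been missed.

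Litaf encodes a membrane protein of late endosomes and lysosomes that is induced by LPS and has been tied to TNF production. It stood at 2.47, 2.70, 2.03 and 1.87 on the wild-type saline arrays, 1.95, 2.63, 2.39 and 2.22 with LPS, 1.18, 1.45, 1.19 and 1.37 on the knockout saline arrays and 3.11, 3.33, 3.33 and 3.35 with LPS. The knockout saline arrays lay below every other array and the knockout LPS arrays above every other array, while the wild-type groups overlapped. The change with LPS was 1.98 ± 0.20 in the knockout (adjusted p = 0.000189, limma) and 0.03 ± 0.20 in wild type. The difference between them was 1.95 ± 0.28 (SE, adjusted p = 0.0301, limma), or 3.87-fold. With wild-type saline arrays 3 and 4 only it was 1.63 ± 0.26 (adjusted p = 0.0656, limma), and without knockout saline array 1 it was 1.91 ± 0.28 (adjusted p = 0.0468, limma). Within slides, the change was -0.42 and 0.48 on the wild-type slides and 1.94 and 2.03 on the knockout slides. Another Litaf probe gave 1.30 ± 0.35. The Litaf probe used lies on chromosome 16, 10959662 to 10959721 (mm9).

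Ccl4 and Ccl3 encode MIP-1β and MIP-1α, chemokines made by activated microglia and macrophages that attract other immune cells. Ccl4 stood at -2.58, -2.76, -3.67 and -4.11 on the wild-type saline arrays, -3.93, -2.59, -2.14 and -4.15 with LPS, -4.71, -4.38, -4.30 and -6.42 on the knockout saline arrays and -0.39, -0.12, -0.46 and 0.90 with LPS. Every knockout LPS array lay above every other array, and the wild-type groups overlapped. The change was 4.93 ± 0.54 in the knockout and 0.08 ± 0.54 in wild type. The difference was 4.86 ± 0.77 (SE, adjusted p = 0.0447, limma), or 29.0-fold, and it was 4.25 ± 0.83 (adjusted p = 0.167, limma) with wild-type saline arrays 3 and 4 only. Ccl4 was well above background on only 3 of the 4 knockout saline arrays, so the fold is approximate. Leaving out 1 array gave differences from 4.37 to 5.21. Without knockout saline array 1 the difference was 4.94 ± 0.83 (adjusted p = 0.0527, limma). Both knockout slides gave 4.9 (4.94 and 4.93) and the wild-type slides gave -0.36 and 0.52.

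Ccl3, which lies near Ccl4 on chromosome 11, had a like pattern. It stood at -4.54, -3.27, -4.73 and -5.13 on the wild-type saline arrays, -5.11, -2.67, -3.64 and -6.38 with LPS, -4.54, -4.92, -5.46 and -4.97 on the knockout saline arrays and -0.47, -0.46, -1.14 and 0.32 with LPS. The knockout LPS arrays again lay above all others, and Ccl3 was not well above background on any knockout saline array. Its rise in the knockout was at least 21.0-fold. The fitted difference from wild type was 4.57 ± 0.87 (adjusted p = 0.101, limma) and did not pass the test. No bound on the difference is given with either baseline, since only 2 of the 4 wild-type LPS arrays were well above background. Of the 4 wild-type saline arrays, 3 were well above background. With wild-type saline arrays 3 and 4 only the fitted difference was 4.06 ± 0.96 (adjusted p = 0.361, limma).

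**Figure D1:**
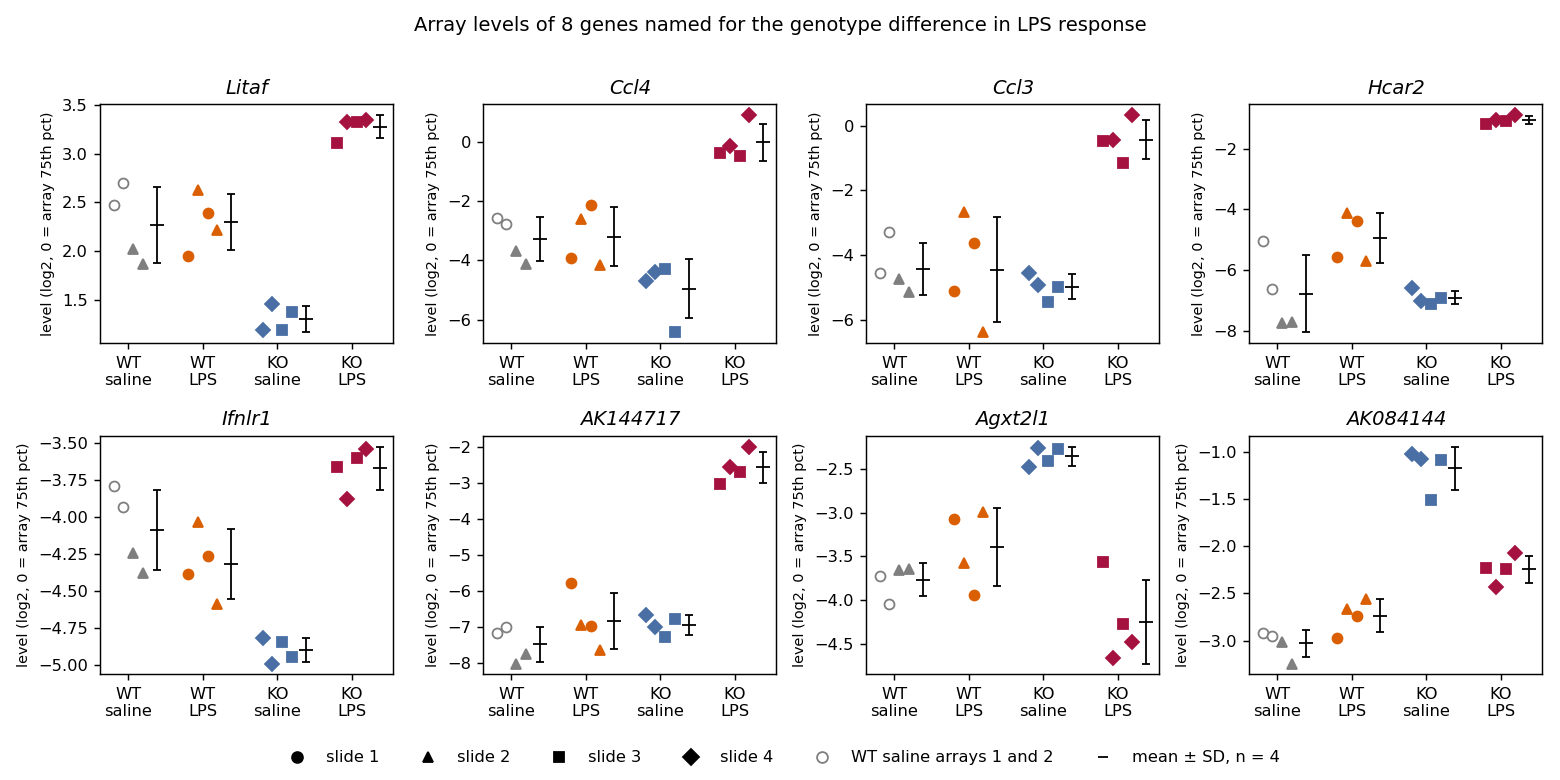
Level of 8 genes (log2, 0 is the 75th percentile of the array) on each of the 16 arrays, with 1 panel per gene, 4 groups along the horizontal axis, marker shape for the slide, open markers for wild-type saline arrays 1 and 2, and the group mean ± SD in black. Litaf, Ccl4, Ccl3, Hcar2 and AK144717 are highest on the 4 knockout LPS arrays, and Agxt2l1 and AK084144 are highest on the 4 knockout saline arrays.

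Ifnlr1 encodes the chain of the interferon-lambda receptor that gives it ligand specificity. It stood at -3.80, -3.93, -4.24 and -4.38 on the wild-type saline arrays, -4.39, -4.03, -4.26 and -4.59 with LPS, -4.82, -4.99, -4.85 and -4.95 on the knockout saline arrays and -3.67, -3.88, -3.61 and -3.54 with LPS. It was not well above background on any knockout saline array, and the highest wild-type saline array reached into the range of the knockout LPS arrays. The rise in the knockout was at least 2.22-fold and the difference at least 2.60-fold (fitted 1.46 ± 0.24, adjusted p = 0.0447, limma). The fitted difference with wild-type saline arrays 3 and 4 only was 1.23 ± 0.24 (adjusted p = 0.161, limma), and without knockout saline array 1 it was 1.48 ± 0.23 (adjusted p = 0.0527, limma). Under another background correction, normexp, the fitted difference of Ifnlr1 turned to -0.70.

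The transcripts AK144717 and AK084144 are cDNA clones for which the tables used here hold no gene name, so their probes are shown to make them identifiable. Both probes are 60 bases long and on the minus strand of mm9, at chr19:4064234-4064293 with 18 G or C bases and at chr1:38246666-38246725 with 27, and nothing within them was singled out.
AK144717: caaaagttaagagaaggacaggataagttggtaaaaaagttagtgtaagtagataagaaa
AK084144: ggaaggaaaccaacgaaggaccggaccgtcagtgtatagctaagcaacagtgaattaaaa

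AK144717 stood at -7.18, -7.02, -8.03 and -7.76 on the wild-type saline arrays, -5.78, -6.94, -6.98 and -7.64 with LPS, -6.68, -7.02, -7.30 and -6.78 on the knockout saline arrays and -3.01, -2.55, -2.69 and -1.98 with LPS. It was well above background on the 4 knockout LPS arrays and on no array of the other groups. AK144717 thus entered the test only through the group where it was high. The other group means in its fit are signal not well above background. The level of AK144717 in the knockout with LPS was at least 5.15-fold that with saline and at least 9.48-fold that in wild type with LPS. The fitted difference was 3.73 ± 0.48 (SE, adjusted p = 0.0214, limma), 3.33 ± 0.52 (adjusted p = 0.0656) with wild-type saline arrays 3 and 4 only and 3.82 ± 0.51 (adjusted p = 0.0468) without knockout saline array 1. With wild type below background on both sides, no bound on the difference itself can be given, and under normexp the fitted value was -0.18.

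ENSMUST00000069631, a transcript on chromosome 11 with no gene name in the tables used here, was the called transcript whose wild-type side moved. It stood at -4.85, -4.26, -4.54 and -4.90 on the wild-type saline arrays, -6.62, -5.79, -5.95 and -6.73 with LPS, -4.09, -3.94, -4.05 and -4.18 on the knockout saline arrays and -4.07, -3.56, -3.47 and -3.20 with LPS. The wild-type LPS arrays lay below every other array, and 1 of the 4 was well above background. The change was -1.63 ± 0.24 in wild type (adjusted p = 0.0437, limma) and 0.49 ± 0.24 in the knockout (adjusted p = 0.365). The difference was 2.12 ± 0.34 (adjusted p = 0.0447, limma), 2.04 ± 0.38 (adjusted p = 0.146) with wild-type saline arrays 3 and 4 only, 2.12 ± 0.35 (adjusted p = 0.0527) without knockout saline array 1, and -0.33 under normexp.

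On the negative side, Agxt2l1 (now Etnppl) encodes the lyase that breaks down phosphoethanolamine. It stood at -3.72, -4.04, -3.65 and -3.64 on the wild-type saline arrays, -3.07, -3.57, -3.94 and -2.99 with LPS, -2.48, -2.26, -2.42 and -2.28 on the knockout saline arrays and -3.56, -4.66, -4.27 and -4.47 with LPS. The knockout saline arrays lay above all others, and the knockout LPS arrays overlapped both wild-type groups. Of the 4 knockout LPS arrays, 3 were well above background. The change was -1.88 ± 0.24 in the knockout (adjusted p = 0.00142, limma) and 0.37 ± 0.24 in wild type. The difference was -2.25 ± 0.34 (adjusted p = 0.0447, limma), -2.14 ± 0.39 (adjusted p = 0.146) with wild-type saline arrays 3 and 4 only and -2.29 ± 0.35 (adjusted p = 0.0527) without knockout saline array 1.

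AK084144 stood at -2.92, -2.95, -3.01 and -3.24 on the wild-type saline arrays, -2.97, -2.67, -2.74 and -2.56 with LPS, -1.02, -1.07, -1.51 and -1.08 on the knockout saline arrays and -2.23, -2.43, -2.24 and -2.07 with LPS. Both knockout groups lay above all wild-type arrays and did not overlap each other. The change was -1.07 ± 0.16 in the knockout (adjusted p = 0.00205, limma) and 0.30 ± 0.16 in wild type. The difference was -1.37 ± 0.22 (adjusted p = 0.0447, limma), -1.46 ± 0.25 (adjusted p = 0.133) with wild-type saline arrays 3 and 4 only and -1.32 ± 0.21 (adjusted p = 0.0527) without knockout saline array 1. For every called gene except AK144717, the knockout saline arrays lay wholly above or wholly below the wild-type saline arrays. Genotype and slide cannot be told apart in that baseline.

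Among genes with a symbol that did not pass, Hcar2 had the smallest adjusted p. It encodes the niacin and β-hydroxybutyrate receptor of macrophages and microglia. It stood at -5.05, -6.60, -7.74 and -7.69 on the wild-type saline arrays, -5.57, -4.12, -4.37 and -5.70 with LPS, -6.59, -7.00, -7.10 and -6.91 on the knockout saline arrays and -1.21, -1.05, -1.08 and -0.91 with LPS. No saline array of either genotype was well above background, 2 wild-type LPS arrays were, and all 4 knockout LPS arrays lay above every other array. Hcar2 thus entered the test only through the knockout LPS group. The rise was at least 14.5-fold in the knockout. No bound is given for wild type, where the LPS group was partly dim. The fitted difference was 4.01 ± 0.69 (adjusted p = 0.0677, limma) with all arrays and 3.07 ± 0.48 (adjusted p = 0.0656) with wild-type saline arrays 3 and 4 only.

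Rasd1, a Ras-like G protein induced by glucocorticoids, differed in its starting level. It stood at 0.43, 0.62, -0.40 and -0.18 on the wild-type saline arrays, 0.55, 0.83, 0.71 and 0.43 with LPS, -2.38, -2.09, -1.36 and -1.59 on the knockout saline arrays and 0.67, 0.75, 0.50 and 0.26 with LPS. The knockout saline arrays lay below all others, and with LPS the genotypes overlapped. The difference of 1.88 ± 0.36 did not pass (adjusted p = 0.1, limma; 1.48 ± 0.34, adjusted p = 0.331, with wild-type saline arrays 3 and 4 only). Cd72, an inhibitory receptor of B cells and myeloid cells, gave 1.39 ± 0.25 (adjusted p = 0.0781, limma) from its brighter probe and 2.43 ± 0.36 from another, and 1.22 ± 0.27 and 2.48 ± 0.43 with arrays 3 and 4 only. Sox7, an endothelial transcription factor, gave 1.60 ± 0.32 (adjusted p = 0.125, limma) from its brighter probe and 0.29 ± 0.40 from another, so its probes disagree. With arrays 3 and 4 only these were 1.58 ± 0.36 and -0.026 ± 0.44.

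Slc13a3 and Erdr1, like Agxt2l1, were highest on the knockout saline arrays. Slc13a3, a sodium-coupled dicarboxylate carrier, stood at -2.71, -2.77, -2.88 and -3.15 on the wild-type saline arrays, -2.76, -2.71, -3.09 and -2.85 with LPS, -0.26, -0.86, -0.54 and -0.03 on the knockout saline arrays and -1.70, -2.06, -1.63 and -1.39 with LPS. All knockout arrays lay above all wild-type arrays, and the knockout groups did not overlap. The difference was -1.30 ± 0.28 (adjusted p = 0.198, limma), and -1.43 ± 0.32 (adjusted p = 0.293) with wild-type saline arrays 3 and 4 only. Erdr1 stood at 4.26, 4.18, 4.99 and 4.56 on the wild-type saline arrays, 4.83, 4.79, 4.30 and 5.03 with LPS, 8.48, 7.74, 7.43 and 7.81 on the knockout saline arrays and 6.06, 6.10, 6.19 and 6.72 with LPS. The same order held, with a difference of -1.84 ± 0.35 (adjusted p = 0.107, limma), and -1.56 ± 0.39 (adjusted p = 0.378) with arrays 3 and 4 only. The files give no position for its probe.

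Cep68, a centrosomal protein gene, was raised by LPS in wild type with saline arrays 3 and 4 only (2.26 ± 0.35, adjusted p = 0.00197, limma) and not with all arrays (1.77 ± 0.32, adjusted p = 0.152). It stood at -6.54, -6.80, -7.61 and -7.70 on the wild-type saline arrays, where it was not well above background, -6.04, -5.46, -4.48 and -5.61 with LPS, -3.95, -3.61, -4.06 and -3.87 on the knockout saline arrays and -4.84, -4.58, -4.60 and -4.00 with LPS. The wild-type saline arrays lay below all others. The difference was at least 2.34-fold toward wild type (fitted -2.40 ± 0.45, adjusted p = 0.1, limma; -2.89 ± 0.45, adjusted p = 0.0656, with wild-type saline arrays 3 and 4 only). The gene 9530091C08Rik gave -1.36 ± 0.25 (adjusted p = 0.0918, limma) from the probe used and -0.44 ± 0.30 from another, and -1.48 ± 0.28 and -0.28 ± 0.34 with arrays 3 and 4 only.

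The response within each genotype frames these differences. In the knockout, LPS raised 486 genes (2.50% of those tested) and lowered 222 (1.14%). In wild type with all arrays it raised 1 (0.00514%) and lowered 1, and with wild-type saline arrays 3 and 4 only it raised 372 (1.91%) and lowered 239. The wild-type count therefore turned on which saline arrays entered. The 486 genes raised in the knockout had a median change of 1.98 there and 0.63 in wild type with all arrays, and 444 of them were positive in wild type. Under the baseline of wild-type saline arrays 3 and 4 only, the 610 genes raised in the knockout had a median of 1.78 there and 1.30 in wild type. Chosen from the wild-type side, the 372 raised genes had a median of 1.98 in wild type and 2.19 in the knockout. Each set was picked by its change in 1 genotype, which favours a larger value there.

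**Figure D2:**
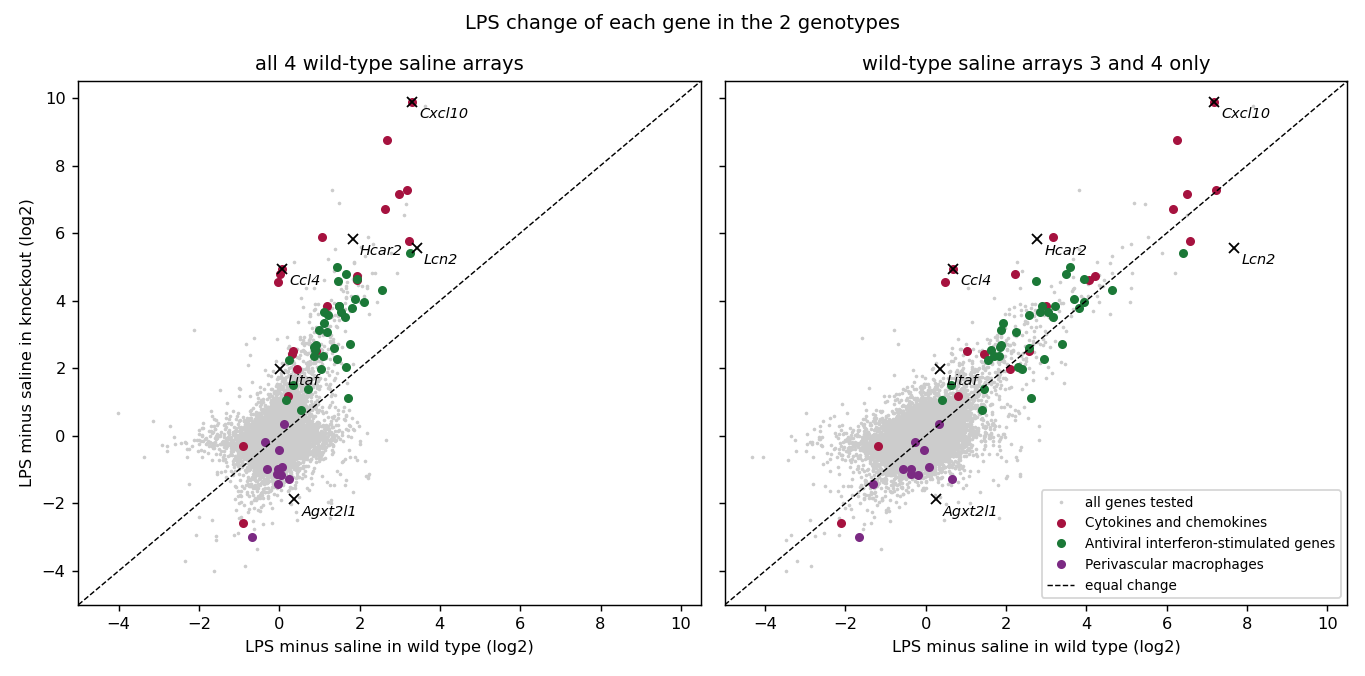
Change with LPS in wild type (horizontal axis, log2) against change in knockout (vertical axis, log2) for 19463 genes, with all 4 wild-type saline arrays on the left and arrays 3 and 4 only on the right; the dashed line marks equal change, and colours mark the cytokine and chemokine, antiviral interferon-stimulated and perivascular macrophage lists. Cxcl10 moves from a wild-type change of 3.31 on the left to 7.19 on the right, toward the line, while Ccl4 moves from 0.08 to 0.69.

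The P2X7 and interleukin-1 axis showed no called difference. Il1b, which encodes interleukin-1β, stood at -2.40, -2.37, -4.74 and -5.03 on the wild-type saline arrays, -4.33, -2.19, -1.67 and -3.87 with LPS, -3.83, -4.48, -4.71 and -4.09 on the knockout saline arrays and -1.38, -1.33, -1.28 and -1.38 with LPS. The knockout LPS arrays lay above all others, and wild-type saline arrays 1 and 2 lay within the wild-type LPS range. The knockout change was 2.94 ± 0.62 (adjusted p = 0.0136, limma). The difference was 2.32 ± 0.88 (adjusted p = 0.605, limma), with a 95% confidence interval of 0.44 to 4.20, and 1.07 ± 0.73 with wild-type saline arrays 3 and 4 only (interval -0.51 to 2.64). Transcript level says nothing of the cleavage and release of the protein.

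Among the inflammasome genes, Nlrp3, Casp1 and Il18 had no called change with LPS in either genotype. Nlrp3, the sensor, had a difference of 0.28 ± 0.39 (interval -0.55 to 1.1) and 0.12 ± 0.40 with wild-type saline arrays 3 and 4 only. Casp1, which cleaves pro-interleukin-1β, had 0.41 ± 0.25 (interval -0.12 to 0.93) and 0.49 ± 0.28. Il18, the other main caspase-1 substrate among cytokines, had 0.57 ± 0.31 (interval -0.09 to 1.23) and 0.54 ± 0.37. The upper ends of these intervals ran from 0.93 to 1.23, so differences of that size are not excluded by these arrays. Casp4, the caspase that binds LPS inside the cell, was raised by LPS in the knockout (3.69 ± 0.80, adjusted p = 0.0155, limma) and, with wild-type saline arrays 3 and 4 only, in wild type (3.32 ± 0.35, adjusted p = 7.4e-05). Its difference was 2.47 ± 1.14 (adjusted p = 0.708, limma), and 0.36 ± 0.45 with arrays 3 and 4 only. Of the 15 measured genes of the inflammasome and interleukin-1 list none had a called difference, 14 were positive and the median was 0.62, against a median of -0.03 and 47.2% positive over all genes. When wild-type saline arrays 3 and 4 alone were used the median was 0.36, 13 of 15 were positive and the all-gene median was 0.04. From that baseline 54.0% of all genes were positive.

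No receptor for extracellular nucleotides was called, P2rx7 included. Of the 24 measured purinergic receptors and ectoenzymes, 14 (58.3%) were positive, against 47.2% of all genes, and the median was 0.14. With wild-type saline arrays 3 and 4 only 15 (62.5%) were positive, against 54.0% of all genes, and the median was 0.27. P2rx7 itself had a difference of -0.14 ± 0.36 (interval -0.90 to 0.61), which turned to 0.28 ± 0.33 with wild-type saline arrays 3 and 4 only. Another P2rx7 probe gave -0.18 ± 0.42, and -0.057 ± 0.34 with arrays 3 and 4 only, so its sign did not turn. P2rx4, the ATP-gated channel most like P2X7 and its neighbour on the chromosome, had 0.22 ± 0.27 (interval -0.36 to 0.79), and 0.25 ± 0.32 with arrays 3 and 4 only. Another P2rx4 probe gave 0.56 ± 0.39 and 0.43 ± 0.46. P2ry2, a G protein-coupled receptor for ATP and UTP, stood at -2.0, -2.20, -3.84 and -4.33 on the wild-type saline arrays, -3.11, -2.04, -2.18 and -2.63 with LPS, -3.28, -4.09, -4.13 and -4.27 on the knockout saline arrays and -1.29, -1.07, -1.18 and -0.94 with LPS. The knockout LPS arrays lay above all others. Its difference was 2.22 ± 0.61 (adjusted p = 0.32, limma) and 1.23 ± 0.41 (adjusted p = 0.555) with wild-type saline arrays 3 and 4 only.

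**Figure D3:**
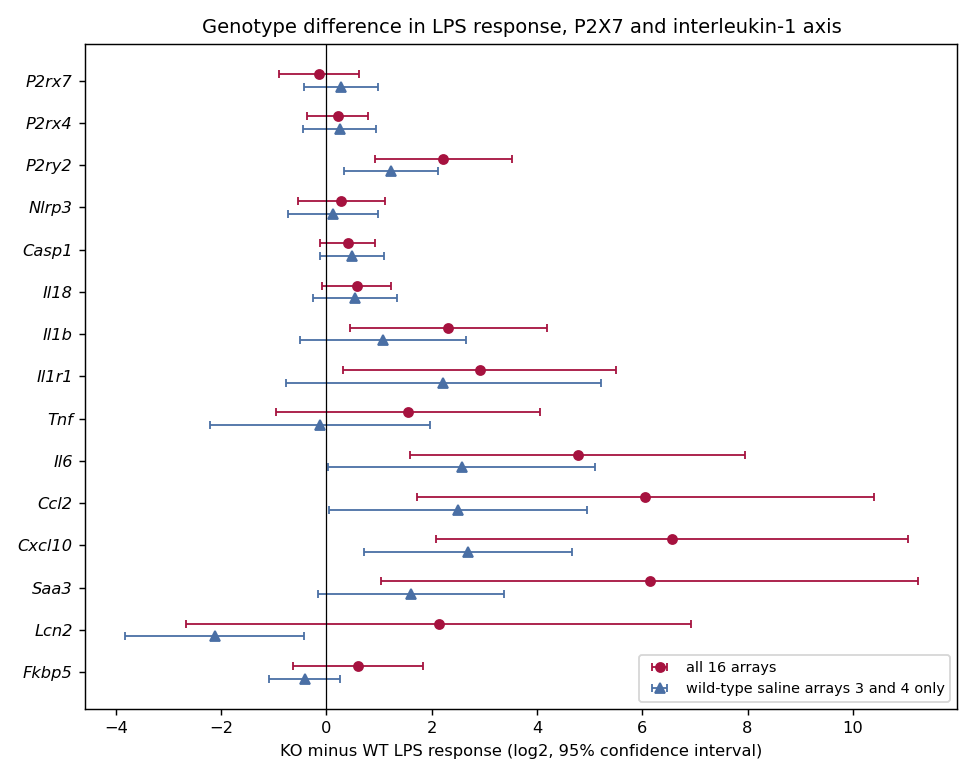
Genotype difference in LPS response (log2, points, with 95% confidence intervals) of 15 genes of the P2X7 and interleukin-1 axis and of LPS response, with all 16 arrays (circles) and with wild-type saline arrays 3 and 4 only (triangles). Ccl2 and Cxcl10 shift toward 0 in the second choice, and Nlrp3, Casp1 and P2rx4 stay near their first values. The points of Il6, Tnf and Saa3, and the triangle of Lcn2, are fitted values of probes not well above background in a saline group.

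Among the cytokines and chemokines, 1 of 20 measured members was called, Ccl4, where 0.0360% of all genes were called. Of the 20, 19 were positive, against 47.2% of all genes. The median difference was 2.72, with a median change of 0.99 in wild type and 4.66 in the knockout. With wild-type saline arrays 3 and 4 only the median difference was 0.75, 16 were positive, against 54.0% of all genes, and none was called. In each form 10 of the 20 were not well above background in at least 1 group, and with these at their bound the medians were 2.11 and 0.72. By slide, the median change was -0.66 on slide 1, 2.94 on slide 2, and 4.75 and 4.65 on the knockout slides. Slide 1, which holds wild-type saline arrays 1 and 2, thus differed from slide 2 in sign.

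Cxcl10, an interferon-induced chemokine for T cells, shows how the baseline enters. It stood at 2.54, 3.10, -4.78 and -5.09 on the wild-type saline arrays, 0.94, 3.69, 3.48 and 0.89 with LPS, -6.63, -4.99, -5.34 and -5.56 on the knockout saline arrays and 4.03, 4.20, 4.46 and 4.29 with LPS. The first pair of wild-type saline arrays lay within the LPS range and the second pair with the knockout saline arrays. The difference was 6.57 ± 2.11 (adjusted p = 0.455, limma), and 2.69 ± 0.92 (adjusted p = 0.568) with arrays 3 and 4 only. Ccl2, the chief monocyte chemokine, gave 6.06 ± 2.04 and 2.50 ± 1.14. Il6 was not well above background on any knockout saline array, so its rise in the knockout was at least 7.18-fold. Its fitted difference with all arrays was 4.78 ± 1.50. Tnf, the gene of tumour necrosis factor, was dim there too, with a rise of at least 1.60-fold and a fitted difference of 1.55 ± 1.18. Neither Il6 nor Tnf was well above background on wild-type saline arrays 3 and 4. These arrays enter both baselines, so no bound on either difference can be given. None of these passed in either form, and the differences of Ccl4 and Ccl3 moved less between the baselines than that of Cxcl10. Ccl4 and Ccl3 were named for a small p with all arrays. That choice favours genes whose wild-type saline arrays agree, so their smaller shift is partly built in.

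In the list of LPS recognition and adaptors, 13 of 17 measured members were positive with none called, and the median was 1.22. With wild-type saline arrays 3 and 4 only 11 were positive and the median was 0.25. Over all genes 47.2% were positive with all arrays and 54.0% with arrays 3 and 4 only. Tlr4, the LPS receptor, had a difference of -0.25 ± 0.36, and -0.32 ± 0.41 with arrays 3 and 4 only. Ly96, which encodes MD-2, had -0.018 ± 0.48 and 0.14 ± 0.56. Tlr2, a receptor for bacterial lipoproteins, stood at 0.32, 0.11, -2.77 and -2.73 on the wild-type saline arrays, -1.59, 0.53, 0.57 and -1.08 with LPS, -2.79, -3.10, -2.95 and -3.19 on the knockout saline arrays and 1.19, 1.45, 1.29 and 1.50 with LPS. The knockout LPS arrays lay above all others. Its difference was 3.49 ± 0.92 (adjusted p = 0.282, limma) and 2.00 ± 0.62 (adjusted p = 0.507). Cd14, the LPS co-receptor, gave 2.85 ± 0.88 and 1.34 ± 0.51.

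NF-κB subunits, inhibitors and targets were positive for 22 of 23 measured members, with a median of 1.25, or 0.54 with wild-type saline arrays 3 and 4 only. Nfkb1, the p105 and p50 subunit gene, had 0.89 ± 0.22 (adjusted p = 0.257, limma) and 0.96 ± 0.25. Feedback inhibitors of inflammation had a median of 1.58 and then 0.70. In that list Socs1, an inhibitor of JAK kinases, had 1.71 ± 0.41 and 1.26 ± 0.39, and Dusp1, a MAP kinase phosphatase, had 1.19 ± 0.31 and 0.98 ± 0.35. No member of either list was called.

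The interferon-stimulated genes also moved with the choice of baseline. Of 34 measured antiviral genes, 33 were positive with a median of 1.86, and 24 with a median of 0.64 with wild-type saline arrays 3 and 4 only. The shares positive over all genes were 47.2% and 54.0%. The 13 interferon-inducible GTPases, which attack membranes of intracellular pathogens, had medians of 2.61 and 0.68. All 13 were raised by LPS in the knockout, where it raised 2.50% of all genes. In wild type with arrays 3 and 4 only all 13 were raised too, against 1.91% of all genes. Rtp4, an interferon-induced chaperone, had the smallest p of the antiviral list, with 2.22 ± 0.50 (adjusted p = 0.212, limma) and 1.42 ± 0.35 (adjusted p = 0.378). None was called in either form.

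Acute-phase genes had a median difference of 2.01 over 15 measured members, and 0.41 with wild-type saline arrays 3 and 4 only. Saa3, a serum amyloid gene of macrophages and endothelium, was not well above background on any knockout saline array. Its rise in the knockout was at least 199-fold and its fitted difference with all arrays was 6.14 ± 2.40 (adjusted p = 0.616, limma). Saa3 was not well above background on wild-type saline arrays 3 and 4 either, so no bound on its difference can be given from either baseline. Lcn2, the siderophore-binding protein of reactive astrocytes and neutrophils, stood at 1.11, 0.80, -7.83 and -7.28 on the wild-type saline arrays, -0.40, 0.90, 0.52 and -0.51 with LPS, -2.77, -5.39, -4.42 and -3.53 on the knockout saline arrays and 1.1, 1.39, 1.24 and 2.39 with LPS. Its difference was 2.13 ± 2.26 with all arrays. On wild-type saline arrays 3 and 4 it was not well above background, and from that baseline the difference was at least 1.27-fold toward wild type (fitted -2.12 ± 0.79, adjusted p = 0.614, limma). Lcn2 passed in neither form. Reactive astrocyte genes had medians of 1.47 and 0.44, endothelial adhesion genes 1.50 and 0.26, and genes of neutrophils and monocytes 1.50 and -0.18. With dim members at their bound, the median with all arrays was 1.13 for the reactive astrocyte genes and 0.91 for the neutrophil and monocyte genes. Lists shared members, Lcn2 and Cxcl10 among them, so these medians are not independent.

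**Figure D4:**
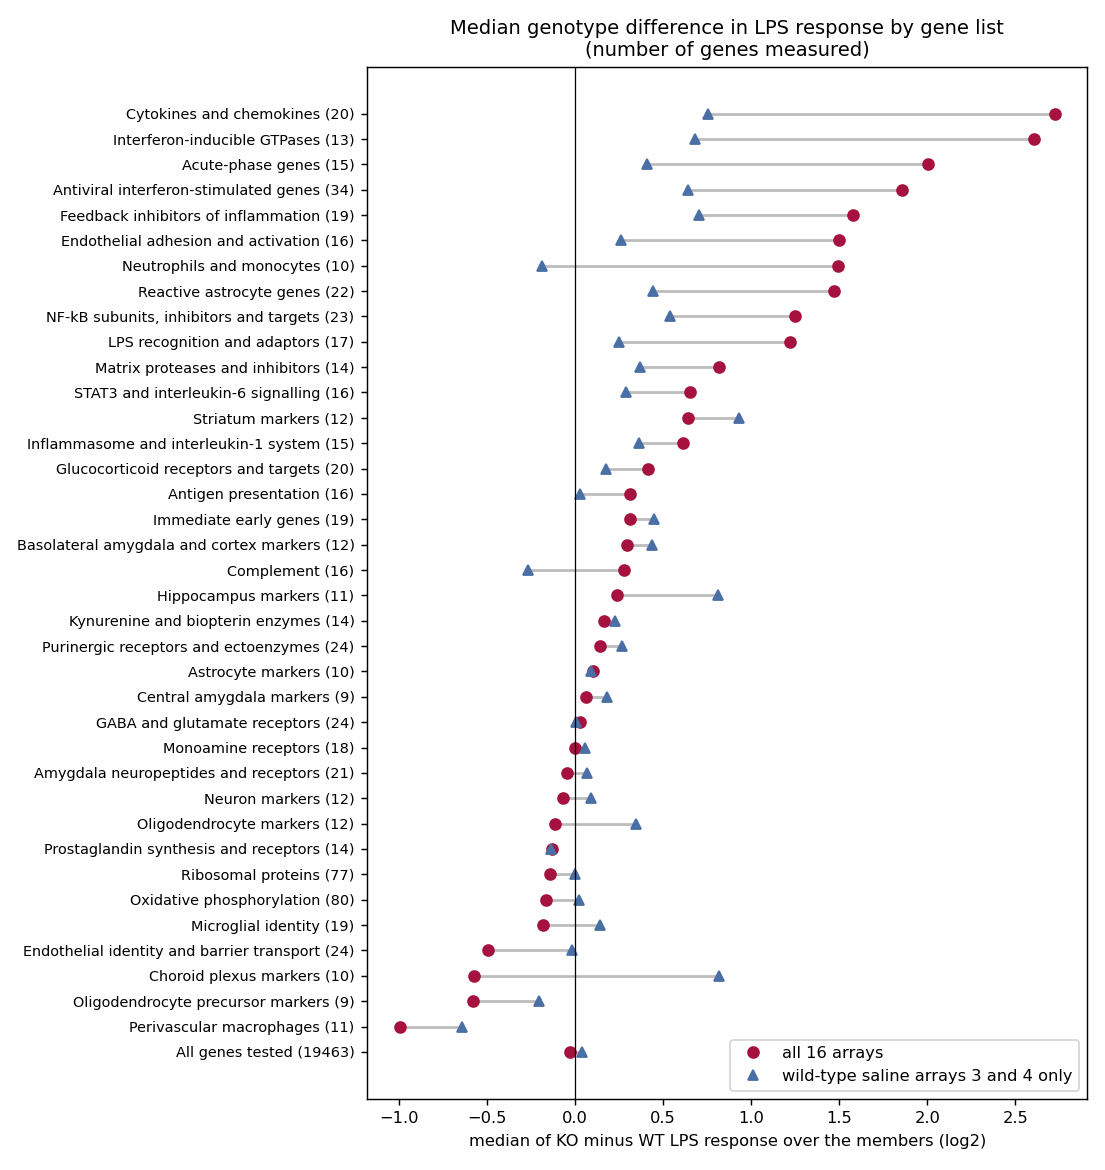
Median genotype difference in LPS response (log2) over the measured members of each of 37 gene lists and over all genes tested, with all 16 arrays (circles) and with wild-type saline arrays 3 and 4 only (triangles), and the number of measured members in brackets. The lists of LPS-induced genes lie right of 0 with all arrays and much nearer to 0 with arrays 3 and 4 only, while the perivascular macrophage list lies left of 0 in both.

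The perivascular macrophage markers were negative with either baseline. Of 11 measured markers of these macrophages of the vessel wall and meninges, 9 were negative, the median was -0.99 and none was called. The median was -0.64 with wild-type saline arrays 3 and 4 only, and 9 were again negative. LPS lowered 4 of the 11 in the knockout, where it lowered 1.14% of all genes. The mean level of the list was -1.26, -1.65, -1.80 and -1.55 on the knockout saline arrays, -2.80, -2.56, -2.53 and -2.43 on the knockout LPS arrays and between -3.06 and -2.43 on all wild-type arrays. The 4 knockout saline arrays lay above the other 12. In RNA from whole tissue, fewer cells of a type and less RNA per cell cannot be told apart.

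Lyve1, a hyaluronan receptor of these macrophages and of lymphatic endothelium, stood at -3.22, -3.01, -3.77 and -4.13 on the wild-type saline arrays, -2.59, -3.68, -3.73 and -3.18 with LPS, -2.83, -2.60, -2.76 and -2.57 on the knockout saline arrays and -4.08, -3.88, -4.20 and -3.70 with LPS. The knockout groups did not overlap. Its difference was -1.51 ± 0.38 (adjusted p = 0.274, limma) and -1.93 ± 0.37 (adjusted p = 0.157) with wild-type saline arrays 3 and 4 only. Cd209f, a C-type lectin, had -2.33 ± 0.64 and -1.33 ± 0.46, and F13a1, the coagulation factor XIII A chain, had -0.99 ± 0.29 and -1.02 ± 0.34. Mrc1, the mannose receptor, had 0.21 ± 0.44 and 0.012 ± 0.51, and Pf4 had 0.19 ± 0.45 and 0.094 ± 0.52, so not all members were negative. Microglial identity genes had medians of -0.18 and 0.14, with none called.

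Oligodendrocyte precursor markers had a median of -0.58, with 8 of 9 negative, and -0.20 with wild-type saline arrays 3 and 4 only. Gpr17, a receptor that marks precursors on the way to maturity, had -1.41 ± 0.33 (adjusted p = 0.23, limma) and -1.11 ± 0.34. Hes5, a Notch target of neural progenitors and astrocytes, is in no list and had -1.74 ± 0.41 (adjusted p = 0.23, limma) and -1.31 ± 0.40. LPS lowered both in the knockout, by a change of -1.61 for Gpr17 and -2.23 for Hes5.

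Lct, the gene that passed with wild-type saline arrays 3 and 4 only, encodes intestinal lactase and is on the list of hippocampus markers used here. It stood at -1.27, -0.77, 0.90 and 1.15 on the wild-type saline arrays, -1.71, -1.29, -1.73 and -1.54 with LPS, -1.0, -1.66, -1.73 and -1.41 on the knockout saline arrays and -1.82, -1.47, -1.41 and -1.22 with LPS. Wild-type saline arrays 3 and 4 stood above the other 14. The difference was 2.56 ± 0.31 (adjusted p = 0.0203, limma) with arrays 3 and 4 only and 1.54 ± 0.59 (adjusted p = 0.605) with all. Without knockout saline array 1 these were 2.71 ± 0.25 (adjusted p = 0.00303) and 1.69 ± 0.62 (adjusted p = 0.412). The mean level of the 11 measured hippocampus markers was 0.16 and 0.27 on wild-type saline arrays 3 and 4 and -1.12 to -0.68 on the other 14 arrays. Its part in the difference of Lct was not tested.

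Markers of other neighbouring tissue moved with these arrays too. The mean of the 10 choroid plexus markers was -4.21, -3.94, -1.71 and -1.49 on the wild-type saline arrays, -1.18, -2.28, -1.1 and -4.34 with LPS and between -4.79 and -3.48 on the knockout arrays. The mean of the 12 striatum markers was 0.62 and 0.56 on wild-type saline arrays 3 and 4, 0.71 on wild-type LPS array 1 and -1.18 to -0.08 elsewhere. The mean of the 12 oligodendrocyte markers was 1.99 and 2.01 on wild-type saline arrays 3 and 4, 1.78 and 1.45 on wild-type LPS arrays 1 and 4, and 0.84 or lower elsewhere. The knockout arrays varied less in all of these. The mean of the 9 central amygdala markers lay between 0.20 and 0.94 on all 16 arrays. The part of these tissue markers in the genotype differences was not tested.

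**Figure D5:**
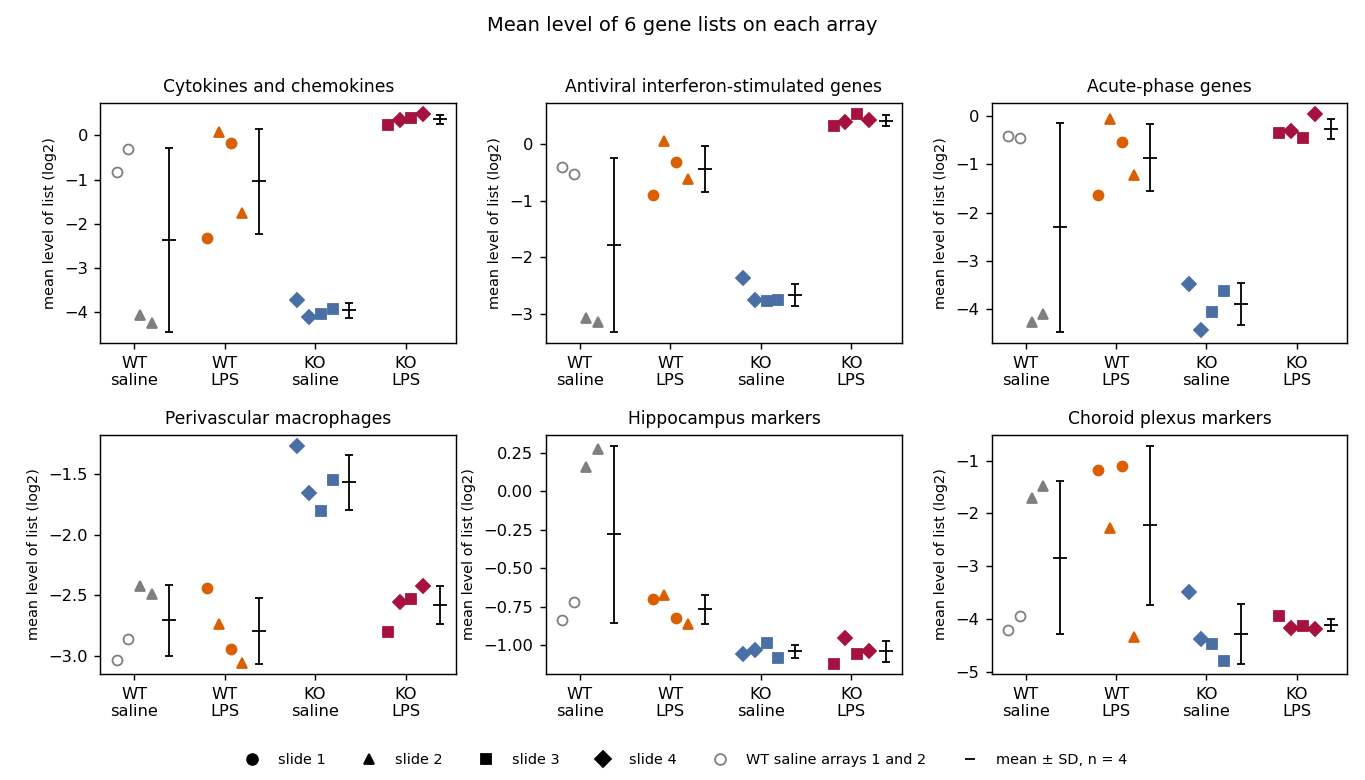
Mean level (log2) of 6 gene lists on each of the 16 arrays, by group, with marker shape for the slide, open markers for wild-type saline arrays 1 and 2, and the group mean ± SD in black. Wild-type saline arrays 1 and 2 sit with the LPS arrays in the cytokine, interferon and acute-phase panels. Wild-type saline arrays 3 and 4 sit high in the hippocampus panel and, along with wild-type LPS arrays 1, 2 and 3, in the choroid plexus panel. The knockout saline arrays sit high in the perivascular macrophage panel.

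Receptor and peptide genes of neurons had medians near that of all genes. GABA and glutamate receptors had a median of 0.03 over 24 genes, and neuropeptides and receptors of the amygdala -0.04 over 21, with none called in either form. Glucocorticoid receptors and targets had a median of 0.42, and 0.18 with wild-type saline arrays 3 and 4 only. Fkbp5, a chaperone induced by glucocorticoids, had 0.60 ± 0.58 and then -0.41 ± 0.31. Ido1, the enzyme that opens the tryptophan ring and starts the kynurenine pathway, stood at -1.64, -1.56, -0.61 and -0.97 on the wild-type saline arrays, -1.09, -3.32, -2.56 and -1.85 with LPS, -4.95, -4.13, -4.14 and -4.65 on the knockout saline arrays and -3.01, -3.20, -3.07 and -2.96 with LPS. LPS raised it in the knockout by 1.41 ± 0.38 (adjusted p = 0.0496, limma), and the wild-type change was -1.01 ± 0.38 (adjusted p = 0.643). The difference was 2.42 ± 0.53 (adjusted p = 0.212, limma) and 2.82 ± 0.58 (adjusted p = 0.226) with wild-type saline arrays 3 and 4 only.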

How the data were processed

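Arrays were scanned to spot intensity on a linear scale by the authors. The submitters' processing notes name Agilent Feature Extraction 9.5. The processed intensity had been background-subtracted within each array per the file headers. The deposited table of log2 group means, made by the authors, served as a check: over 16758 shared probes its difference of responses correlated at r = 0.997 across genes with the values here. It also holds 32 columns of per-array detection calls, which entered no step.

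Control spots and outlier spots were left out. The processed intensity was scaled to the 75th percentile of each array (345.9 to 1164.7) and logged. A probe entered if 3 or 4 arrays of any group had it well above background (28347 probes; 58.1% to 71.9% of probes per array were above background), and the brightest stood for its gene. limma 3.58.1 (R 4.3.3) fitted 4 group means over 16 arrays, with no block, and Benjamini-Hochberg adjustment at 0.05. The script was tested on simulated data. The number of arrays limits the precision.

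Named genes were those called, the 12 with a symbol and the smallest p in each direction, the 8 in each direction with wild-type saline arrays 3 and 4 only, the 2 of smallest p in each of 37 lists, and 15 fixed by name, of which Il1a and Crh had no kept probe under those names. Other members of the lists are named as examples, chosen after their values were seen. Members and lists were chosen with earlier results of these data known. Lists got no test. Where a probe was not well above background in a group, the bound sets the bright group against the higher of the probe's own signal and the lowest signal among probes above background. This was done only where no array of the group was well above background. Dim arrays of a partly dim group kept their own signal, so a bound that rests on such a group is approximate. Replicate numbers did not pair arrays: deviations of same-numbered arrays correlated from -0.38 to 0.34. Alternatives were background correction, normalization, filters, probes, slide, replicate block, array weights, and leaving out arrays or slides. The choices of wild-type saline arrays, alone and with knockout saline array 1 left out, and the fits of every probe were added after the data were seen. Positions are those of the files, on mm9.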

Additional observations from a re-analysis of the deposited data

Results flagged for a closer look

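The 7 genes whose LPS response differed between genotypes by the test of the difference itself were Litaf at 1.95, Ccl4 at 4.86, Ifnlr1 at 1.46, AK144717 at 3.73, ENSMUST00000069631 at 2.12, Agxt2l1 at -2.25 and AK084144 at -1.37 (log2, all arrays).

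Single arrays far from the other 3 of their group were looked for in 316 groups of 4 arrays, over 42 genes and 37 list means, and 15 were found; chance gives about 1 in 20 groups. Knockout saline array 1 was the outlying array for the mean of the antiviral interferon-stimulated genes at -2.37, of the amygdala neuropeptides and receptors at 1.1, of the oligodendrocyte precursor markers at 0.39, and for Lilrb4a at -6.48, a dim probe. Other knockout saline outliers were array 2 for Sox7 at -3.96, array 3 for AK084144 at -1.51 and array 4 for the central amygdala markers at 0.31. Among knockout LPS arrays they were array 1 for Litaf at 3.11, array 3 for the oligodendrocyte precursor markers at -0.36, and array 4 for 9530091C08Rik at 1.37 and the STAT3 and interleukin-6 signalling genes at 0.87. In wild type they were saline array 3 for Stk38 at -0.79 and the astrocyte markers at 2.11, LPS array 1 for Hes5 at 3.60, and LPS array 4 for Cd72 at -3.75.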

How the results depend on the processing

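The count of genes with a called genotype difference, 7 with all arrays, moved with most choices. It was 0 under normexp (4092 genes at an unadjusted p under 0.05), 11 under quantile normalization, 3 under median centring, 1 with no filter on dim probes, 1 with probes above background on all 16 arrays, 16 with slide as a block and 212 with array weights, which favoured other arrays over wild-type saline 1 and 2 and knockout saline 1. By array weights 85 differences were positive and 127 negative, against 5 and 2, and with the slide block 8 and 8. The slide block and the array weights kept all 7 genes. With the replicate block the count was 0 (1215 at an unadjusted p under 0.05). It was 3 without slide 1, 584 without slide 2, 0 without slide 3 (762) and 0 without slide 4 (1145). Of the added choices, wild-type saline arrays 3 and 4 only gave 1, arrays 1 and 2 only gave 571, and arrays 3 and 4 only with knockout saline array 1 left out as well gave 5, of which Lct, Rgs9, Tspan18 and 4921511C04Rik were positive and AK084173 negative, none of them among the 7.

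Leaving out 1 array gave 0 to 11: 0 without wild-type saline array 1 or 2, knockout saline array 2, 3 or 4, or knockout LPS array 2 or 3; 1 without wild-type LPS array 1; 2 without wild-type saline array 3; 3 without knockout saline array 1 or knockout LPS array 4; and 11 without wild-type LPS array 2. The unadjusted counts at 0 called ran from 1047 to 1394. Litaf was called in 15 of 32 alternatives, AK144717 in 18 of 31, Agxt2l1 in 11 of 31, ENSMUST00000069631 in 10 of 31, Ccl4 in 9 of 31, Ifnlr1 in 8 of 31 and AK084144 in 5 of 32, of which 0 of 16 left out 1 array; Litaf, Ccl4, Agxt2l1 and AK084144 kept their sign in all.

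The count of genes changed in the knockout, 708, was 429 under normexp, 2724 with array weights, 1 without slide 3, 0 without slide 4 and 1179 with wild-type saline arrays 3 and 4 only and knockout saline array 1 left out, and 430 to 756 leaving out 1 array. The wild-type count, 2, was 1 under quantile normalization, 0 under median centring, 0 with no filter, 1 with probes above background on all 16 arrays, 0 with the replicate block, 1559 with array weights, 413 without slide 1, 90 without slide 2, 0 without slide 3, 10 without slide 4, 611 with wild-type saline arrays 3 and 4 only, 1225 with these and knockout saline array 1 left out, 41 with arrays 1 and 2 only and 0 to 19 leaving out 1 array.

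Signs turned as follows, and the cause was not tested. AK144717, Ifnlr1, Lilrb4a, Arg2, Tal2, Prr15l and Tnf, and Lcn2 from the baseline of wild-type saline arrays 3 and 4, were not well above background in a group, so their values are fitted and not measured differences. Under normexp AK144717 was -0.18, ENSMUST00000069631 -0.33, Ifnlr1 -0.70, Cd72 -0.47, Lilrb4a -0.84, Sox7 -0.36, Bhlhe23 -0.77, Drd5 -0.030, Arg2 -0.78, Tal2 -0.95, 2310002F09Rik -0.52, Xdh -0.10, P2rx4 -0.22, Nlrp3 -0.68, Casp1 -0.057 and Tnf -0.83. Normexp also moved the median of all genes from -0.03 to -0.21, and that of the dimmest 6488 genes from -0.06 to -0.87. With array weights Xdh was -0.81, P2rx7 0.40, Tnf -0.20, Lcn2 -1.22 and Fkbp5 -0.30. Without slide 1 Xdh was -1.25, P2rx7 0.093, Nlrp3 -0.092, Tnf -0.19, Lcn2 -2.19 and Fkbp5 -0.48. Without slide 2 Tspan18 was -0.19, 2310002F09Rik -0.082 and Prr15l 0.24. Without slide 4 P2rx7 was 0.057. With wild-type saline arrays 3 and 4 only Xdh was -1.28, P2rx7 0.28, Tnf -0.13, Lcn2 -2.12 and Fkbp5 -0.41, and with knockout saline array 1 left out too they were -1.21, 0.38, -0.13, -1.71 and -0.48. With arrays 1 and 2 only Tspan18 was -0.30 and 2310002F09Rik -0.38. Leaving out 1 array, Xdh ran from -0.19 (without wild-type saline array 2) to 1.01, and P2rx7 from -0.30 to 0.048 (without wild-type saline array 1).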

Other observations

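Some genes outside the lists described above had sizeable differences of response with wild-type saline arrays 3 and 4 only, without passing the test. Drd5, a dopamine receptor, had 2.01 ± 0.34 (adjusted p = 0.117, limma) and, with all arrays, 1.46 ± 0.40. C1ra, a protease of the C1 complex, had 3.91 ± 0.99 (adjusted p = 0.378, limma) and 5.25 ± 1.25. Xdh, xanthine dehydrogenase, had -1.28 ± 0.31 with arrays 3 and 4 only and 0.42 ± 0.90 with all arrays. Another Xdh probe gave -0.15 ± 0.74 with arrays 3 and 4 only and 1.36 ± 0.99 with all arrays. Arg2, the mitochondrial arginase, was well above background on no knockout saline array and on 2 of 4 knockout LPS arrays. With the knockout LPS group partly dim, no bound on its rise or its difference is given. The fitted difference of Arg2 was 2.08 ± 0.47 with all arrays and 2.58 ± 0.46 with arrays 3 and 4 only.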
